A study of Mus musculus with 9 samples.

Results

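Genes known from the dormancy of disseminated tumour cells were followed in D2.0R cells, a line from mouse mammary hyperplastic nodules. The line is quiescent when cultured on basement membrane extract (BME), and adding type I collagen (COL) to the extract makes it proliferate. The 10 genes, out of 23309 in the files, were chosen by name: the transcription factors Nr2f1, Bhlhe40, Bhlhe41 and Sox9, the ligand Gas6, its receptors Axl, Mertk and Tyro3, and the p38 kinases Mapk14 and Mapk11. RNA of the line was sequenced from 3 libraries each of cells grown on BME for 1 day (BME day 1), on BME for 5 days (BME day 5) and on BME with collagen for 5 days (BME + COL day 5), all in low glucose medium with a little serum. The study describes the 3 libraries of a group as biological replicates. It compared early and late quiescence on BME with proliferation on BME + COL, in 1 cell line and in culture.

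Values are FPKM, fragment numbers scaled by transcript length and by the mapped fragments of the library, and a gene's FPKM is the sum over its transcripts. The mean over the 9 libraries reached 1 FPKM for 10497 genes, which were tested, and for 9 of the 10 genes described here. The exception was Gas6. Differences are between group means of log2(FPKM + 0.1), as fitted by limma across all genes tested, and calls rest on a Benjamini-Hochberg adjusted p under 0.05 in a two-sided test. With 0.1 added, the fold change of a gene near 1 FPKM is somewhat understated.

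The aligned sequence over transcripts came to 7.21 to 9.37 gigabases a library. Replicate b of BME day 5 stood apart, with its median gene at -0.27 on the log2 scale from the mean of the 9 libraries and with the proliferation gene Mki67 at 4.88 FPKM, against 18.5 and 14.6 FPKM in replicates a and c. In replicate a of BME day 5, transcripts under 300 nt took 7.30% of the FPKM, against 0.497% to 2.18% elsewhere. Of 11 epithelial markers, 6 reached 1 FPKM, led by the keratins Krt8 (395 to 1324 FPKM) and Krt18 (362 to 1088 FPKM), while Krt5, Krt19, Cldn3, Cldn4 and Esrp1 stayed under 1 FPKM. Of 12 macrophage and other haematopoietic markers, 10 stayed under 1 FPKM in every library and the macrophage marker Emr1 was listed at 0 in all 9. Of 8 endothelial markers, 7 stayed under 1 FPKM and Flt1 was at 10.2 to 18.8 FPKM. Fewer cells of a type and less RNA per cell cannot be told apart in such bulk libraries.

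NR2F1 is an orphan nuclear receptor that holds some disseminated tumour cells in a quiescent state, together with SOX9 and the retinoic acid receptor RARB. BHLHE40 and BHLHE41, also called DEC1 and DEC2, are transcriptional repressors that bind E-boxes, act in the circadian clock and have been tied to tumour dormancy downstream of TGF-beta and p38. GAS6 is a vitamin K-dependent ligand that activates the receptor tyrosine kinases TYRO3, AXL and MERTK (the TAM receptors) and slows the growth of tumour cells in bone marrow. Stress-activated p38 kinases counter ERK signalling, and a high ratio of p38 to ERK activity is a known feature of dormant cells. That regulation is largely at the level of phosphorylation, which RNA does not show.

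At day 5 the dormancy genes did not move in 1 direction. Bhlhe40 and Bhlhe41 were higher on BME than on BME + COL, and Nr2f1, Sox9, Axl, Mertk and Mapk14 were lower. Tyro3 and Mapk11 were not called. Of all genes tested, 30.3% were called higher and 45.3% were called lower in the same comparison, so that 2 higher and 5 lower among 9 is a share near the background. The median difference of the 9 genes was -0.54 on the log2 scale, beside -0.18 for all genes tested.

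**Figure D1:**
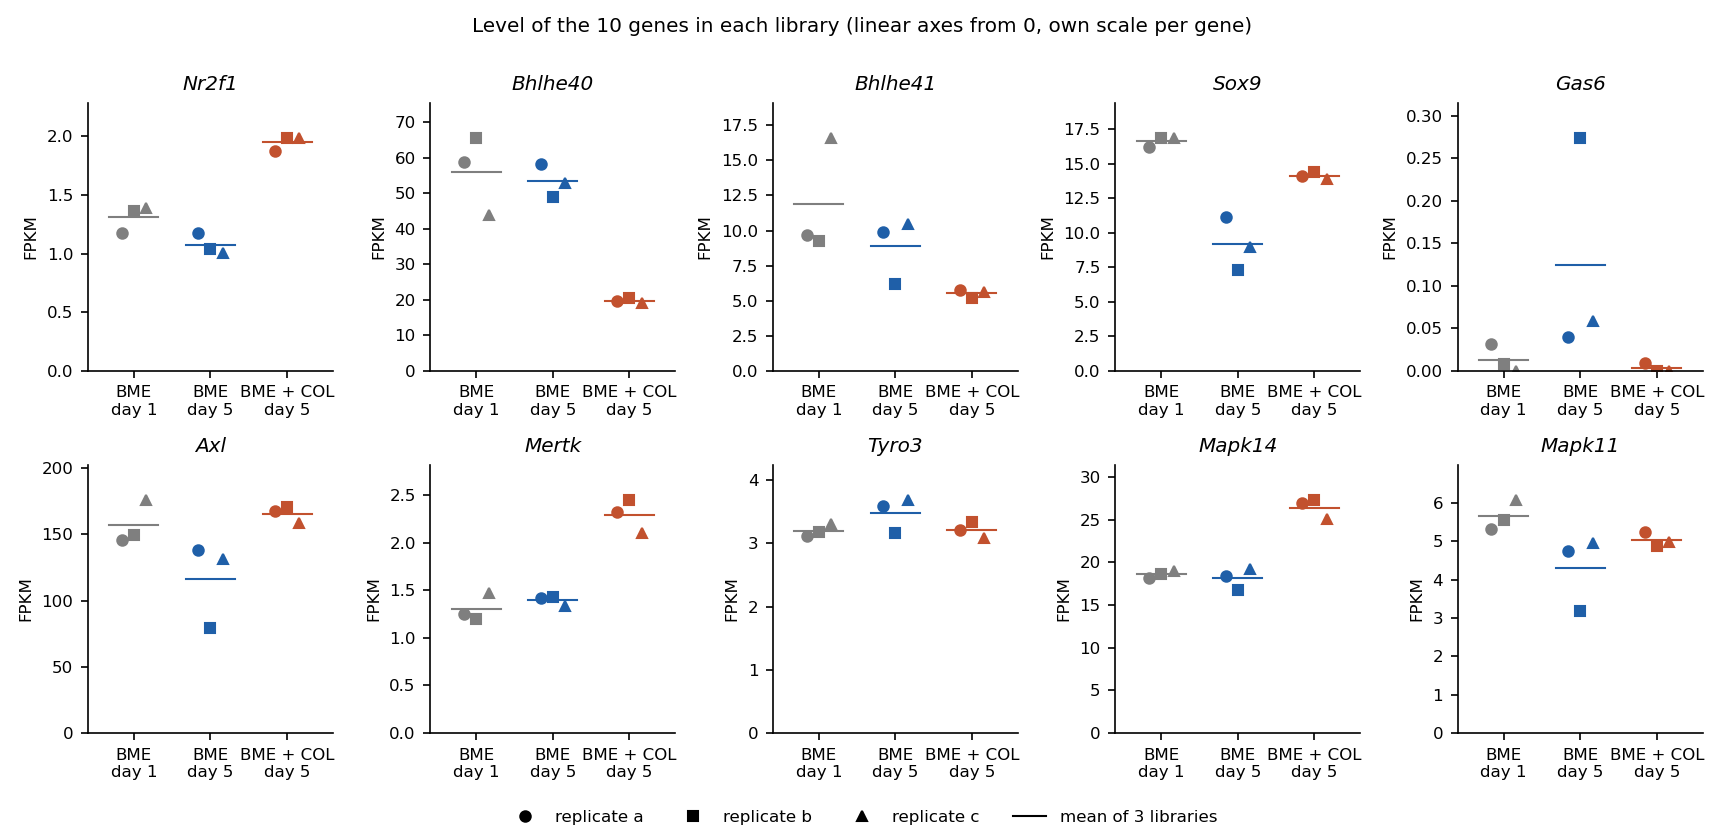
FPKM of each of the 10 genes (vertical axes, linear from 0, a scale for each gene) in the 9 libraries, with circles, squares and triangles for replicates a, b and c and a line at the mean of 3 libraries. Bhlhe40 was below 21 FPKM in every BME + COL library and above 43 FPKM in every BME library, while Nr2f1, Mertk and Mapk14 were highest on BME + COL.

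The choice of scale moved all genes together. As TPM (which rescales FPKM to the same total in each library), the median of all genes shifted by 0.34 on the log2 scale in this comparison, to 0.16, and the calls over all genes turned from 3179 higher and 4756 lower to 4858 higher and 3327 lower. Among the 9 dormancy genes the TPM scale gave 3 higher and 4 lower. The signs of the 7 called genes were the same on every scale tried. Growth genes moved with the comparison too: 12 of 12 proliferation genes, Mki67 among them, were lower on BME day 5 than on BME + COL day 5, with a median of -2.30. Cdc20, an activator of the anaphase-promoting complex, differed the most of them, at 18.9 ± 0.651 FPKM on BME day 1, 11.3 ± 5.75 FPKM on BME day 5 and 89.6 ± 1.03 FPKM on BME + COL (-3.13 for BME day 5 against BME + COL, adjusted p = 2.53e-05, and 2.24 for BME + COL against BME day 1, adjusted p = 0.000326). The summed level of 10 fibroblast markers was 50.7 to 62.4 FPKM on BME day 5, 4.68 to 4.89 FPKM on BME + COL and 23.5 to 31.6 FPKM on BME day 1, with 4 of the 10 (Col1a1, Pdgfra, Pdgfrb and Postn) reaching 1 FPKM and Lum listed at 0. That of the 11 epithelial markers was 785 to 1170 FPKM on BME day 5, 2364 to 2471 FPKM on BME + COL and 1464 to 1628 FPKM on BME day 1. Krt8 and Krt18 made up most of this sum, so it does not stand for the list. Of the members reaching 1 FPKM, Krt8, Krt18 and Krt7 had higher means on BME + COL than on BME day 1. Epcam, Cdh1 and Krt14 had lower ones. At day 5 all of them had higher means on BME + COL than on BME, Epcam and Krt14 only slightly. The part of growth state and of these markers in the differences below was not tested.

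Ordered by level per length, Axl stood first in all 3 groups, with means of 157, 116 and 165 FPKM on BME day 1, BME day 5 and BME + COL day 5. Bhlhe40 came second on BME at both days, and on BME + COL Mapk14 lay above it. Neighbours in the order whose libraries overlapped were Sox9 and Bhlhe41 on BME at both days, Nr2f1 and Mertk on BME day 1, Mapk11 and Tyro3 on BME day 5, and Bhlhe41 and Mapk11 on BME + COL. Gas6 came last in each group.

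**Figure D2:**
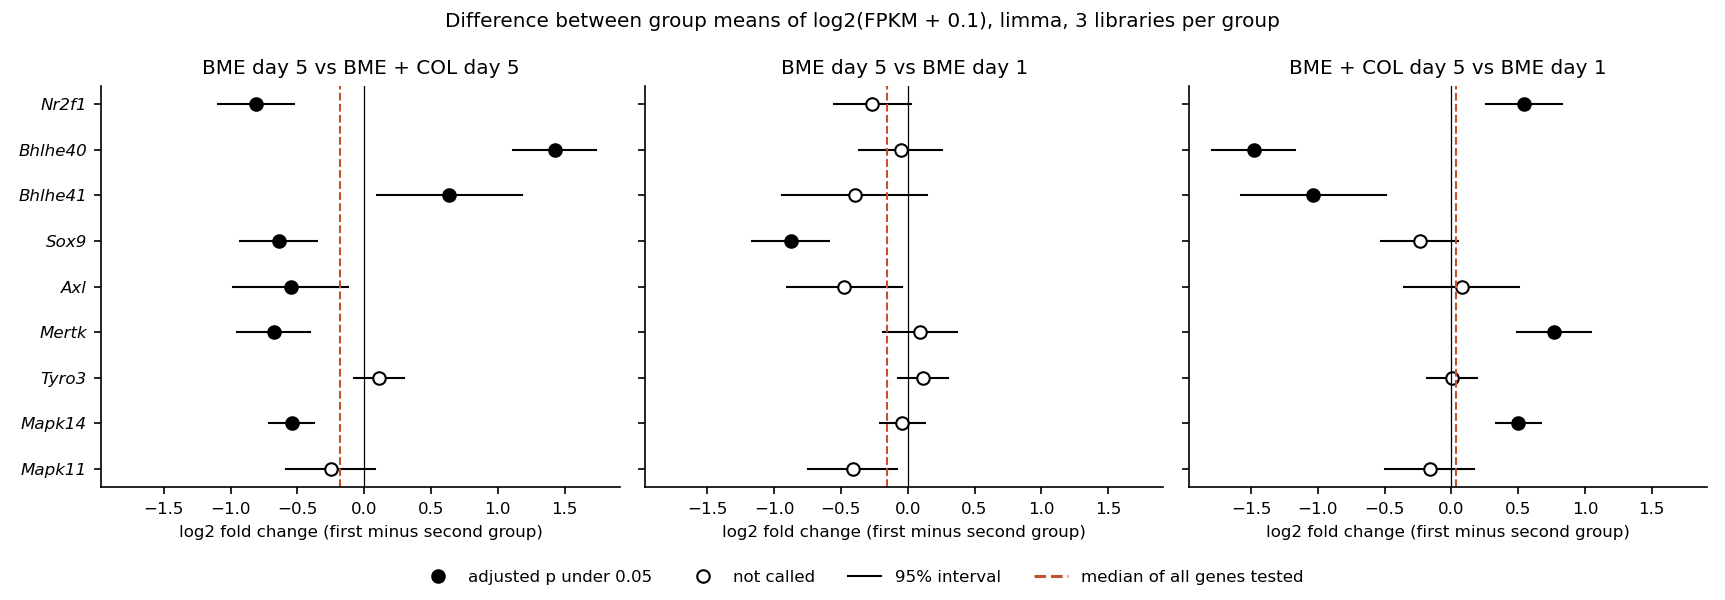
Difference in group means of log2(FPKM + 0.1) for the 9 tested genes in the 3 comparisons (horizontal axes, first minus second group), with 95% intervals, filled points for an adjusted p under 0.05 and a dashed line at the median of all genes tested. Of the 9 genes, 7 were called between BME day 5 and BME + COL day 5, 1 (Sox9) between the BME days and 5 between BME + COL day 5 and BME day 1. Of all 10497 genes, 7935, 3281 and 6931 were called in the same order.

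Nr2f1 (mm9 chr13:78328236-78338243, minus strand) was low throughout. It was at 1.18, 1.36 and 1.39 FPKM on BME day 1, at 1.18, 1.04 and 1.00 FPKM on BME day 5 and at 1.87, 1.99 and 1.99 FPKM on BME + COL day 5. The proliferating cultures were thus above every quiescent one, and the 2 BME groups met at 1.18 FPKM. The difference of BME day 5 from BME + COL was -0.81 on the log2 scale (SE 0.13, adjusted p = 0.000283), a 1.75-fold lower level. BME + COL day 5 was 0.54 above BME day 1 (SE 0.13, adjusted p = 0.00416), and the BME days differed by -0.26 (95% interval -0.55 to 0.020, adjusted p = 0.128). At this level the interval Cufflinks gives reached 13.8% to 19.7% to either side of a value. Nr2f1 shares its locus with the antisense gene A830082K12Rik, which was at 0.373 to 0.546 FPKM on BME and at 0.870 to 1.01 FPKM on BME + COL. The library kit marks the strand, but whether the counting used it is not given in the sources used here, so the reads of the pair cannot be told apart.

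Among the COUP-TF genes, Nr2f6 held most of the FPKM and Nr2f1 the least. Nr2f1 made up 4.38% ± 0.297 of the family on BME day 1, 3.58% ± 0.611 on BME day 5 and 5.75% ± 0.390 on BME + COL (SD, n = 3). Nr2f2, the closest relative of Nr2f1, was also lower on BME day 5 than on BME + COL, at 3.80 ± 0.362 against 8.98 ± 0.337 FPKM (log2 difference -1.22, adjusted p = 2.18e-06). Nr2f6 was at 25.4 ± 2.76 and 23.0 ± 1.53 FPKM (log2 difference 0.14, adjusted p = 0.209), called higher on BME as TPM (0.48, adjusted p = 0.00902), by median-ratio scaling (0.32, adjusted p = 0.0380) and without replicate a of BME day 5 (0.22, adjusted p = 0.0327). Of 14 tested genes of the COUP-TF and retinoid list, 4 were higher and 5 lower on BME than on BME + COL at day 5, beside 30.3% and 45.3% of all genes. As TPM the list gave 9 higher and 2 lower, and by median-ratio scaling 7 and 3. All 10497 genes gave 4858 and 3327 as TPM, and 4151 and 4156 by median-ratio scaling. Rarb, a retinoic acid receptor that is itself induced by retinoic acid, was at 0.900 ± 0.348 FPKM on BME day 5, 2.55 ± 0.164 FPKM on BME day 1 and 6.80 ± 0.340 FPKM on BME + COL (SD, n = 3). It was lower on BME day 5 than on BME + COL (log2 difference -2.84, SE 0.20, adjusted p = 2.00e-06), the same direction as for Nr2f1. Dhrs3, which turns retinaldehyde back into retinol, went the other way, from 0.189 ± 0.0554 FPKM on BME + COL to 13.7 ± 2.30 FPKM on BME day 5 (log2 difference 5.57, SE 0.41, adjusted p = 2.68e-06), or 3.61 with 1 FPKM added in place of 0.1.

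Bhlhe40 (mm9 chr6:108610623-108616919, plus strand) gave the largest difference of the 9 genes. On BME day 1 it was at 58.8, 65.6 and 43.9 FPKM, on BME day 5 at 58.2, 49.0 and 53.0 FPKM and on BME + COL day 5 at 19.7, 20.5 and 19.1 FPKM. The BME days overlapped, and all 6 BME libraries lay above the BME + COL libraries. Its level on BME day 5 was 2.69-fold that on BME + COL (log2 difference 1.43, SE 0.14, adjusted p = 1.39e-05), and BME + COL was below BME day 1 by a similar amount (-1.48, adjusted p = 1.91e-05). Between the BME days the difference was -0.054 (95% interval -0.37 to 0.26, adjusted p = 0.774). The antisense gene 0610040F04Rik, which overlaps it, was at most 0.0358 FPKM. Of all genes tested, 93.5% had a lower value than Bhlhe40 in BME day 5 against BME + COL.

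Bhlhe41 (mm9 chr6:145806763-145813940, minus strand), its paralogue, was lower in level and less even. It was at 9.68, 9.29 and 16.6 FPKM on BME day 1, at 9.90, 6.22 and 10.5 FPKM on BME day 5 and at 5.78, 5.22 and 5.61 FPKM on BME + COL. Every BME library was above the BME + COL libraries, replicate b of BME day 5 only narrowly. The log2 difference of BME day 5 from BME + COL was 0.64 (SE 0.24, adjusted p = 0.0360). The call was lost without replicate a or c of BME day 5 (0.54 and 0.50, adjusted p = 0.115 and 0.128), without replicate a, b or c of BME + COL (0.67, 0.59 and 0.65, adjusted p = 0.0666 to 0.0998) and with no filter on low values (adjusted p = 0.129). Over 19 alternatives its adjusted p ran from 0.00129 to 0.129. BME + COL was below BME day 1 (log2 difference -1.03, SE 0.24, adjusted p = 0.00421), and the BME days differed by -0.40 (95% interval -0.94 to 0.15, adjusted p = 0.215). Together the DEC genes summed to 55.3 to 68.1 FPKM on BME day 5 and to 24.7 to 25.7 FPKM on BME + COL, and Bhlhe40 supplied 72.5% to 88.7% of the sum in each library.

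DEC proteins and the CLOCK-BMAL1 complex compete for the E-box CACGTG. The 250 bases before the start of Bhlhe41 (GRCm38.p6 chr6:145865421-145865670, minus strand, RefSeq) hold 1 such E-box, which starts 153 bases before the transcript. They are shown here because, of the 8 dormancy genes with a promoter window, only Bhlhe41 had this E-box in it. Bhlhe40 and Sox9 had no window, so their promoters were not searched. The E-box is in capitals.
Bhlhe41 promoter: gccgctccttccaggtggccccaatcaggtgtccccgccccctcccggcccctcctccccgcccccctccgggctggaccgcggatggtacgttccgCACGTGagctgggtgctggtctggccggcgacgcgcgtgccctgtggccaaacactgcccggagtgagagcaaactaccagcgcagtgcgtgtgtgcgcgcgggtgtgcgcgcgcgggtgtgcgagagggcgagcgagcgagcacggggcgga
The letters CACGTG, which read the same on both strands, occur in 6.02% of 32851 promoter windows of this length. Of the 10 genes, 8 had 10 promoter windows in the table, and none of those held the AP-1 motif TGANTCA or the CRE motif TGACGTCA, found in 6.75% and 1.55% of all windows. A match is a description of the sequence, not of binding.

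The clock genes around the DEC factors were followed in the same comparison. Of 17 tested members of the circadian clock list, 10 were higher and 4 lower on BME day 5 than on BME + COL, with a median of 0.61 beside -0.18 for all genes. Of all genes, 30.3% were higher and 45.3% lower. The list gave 12 higher and 2 lower as TPM, where all 10497 genes gave 4858 and 3327. It gave 4 and 4 of the 11 members with a mean of at least 5 FPKM. Tef, a PAR bZIP factor under clock control, was at 14.5 ± 0.804 FPKM on BME day 5 and 4.29 ± 0.308 FPKM on BME + COL (log2 difference 1.73, SE 0.078, adjusted p = 2.10e-07), and lay between them on BME day 1 at 8.43 ± 0.411 FPKM. Dbp (3.13) and Per3 (2.45) differed more between BME day 5 and BME + COL, from levels of 0.360 and 0.390 FPKM on BME + COL. Timeless, which in mammals acts mainly at replication forks, was lower, at 3.20 ± 1.27 FPKM against 10.5 ± 0.318 FPKM (-1.77, SE 0.26, adjusted p = 0.000174). Arntl, which encodes the activator BMAL1, was at 9.80 ± 0.367 FPKM on BME day 1, 5.17 ± 0.215 FPKM on BME day 5 and 4.54 ± 0.353 FPKM on BME + COL. It was lower on BME day 5 than on BME day 1 (-0.91, adjusted p = 0.000206). BME + COL day 5 was also below BME day 1 (-1.09, adjusted p = 3.41e-06), a comparison in which both matrix and day differ. Between the matrices at day 5 it was 0.18 higher on BME (adjusted p = 0.0496), a call that most alternatives lost (adjusted p up to 0.174, without replicate c of BME + COL). That includes a pseudocount of 1 or 0.01 FPKM, no filter, only the 6 libraries, and leaving out any 1 BME day 5 library.

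**Figure D3:**
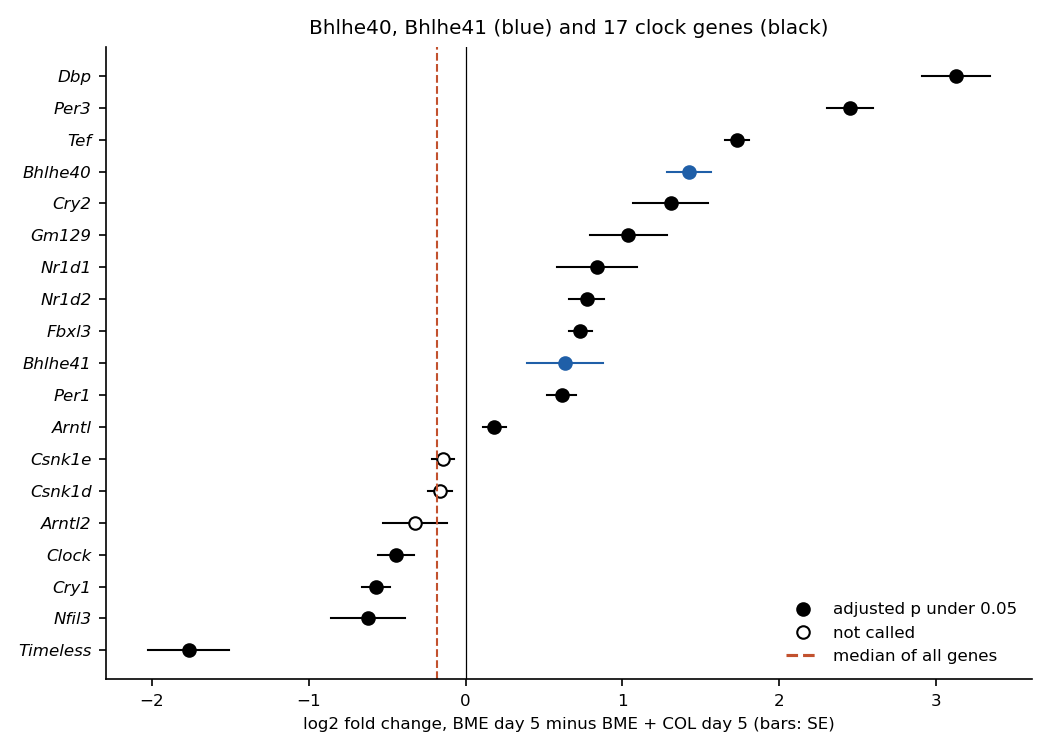
Log2 difference of BME day 5 from BME + COL day 5 (horizontal axis, bars are SE) for Bhlhe40 and Bhlhe41 in blue and for all 17 tested clock genes in black, filled where the adjusted p was under 0.05, with a dashed line at the median of all genes tested. Bhlhe40 (1.43) lay below Dbp (3.13), Per3 (2.45) and Tef (1.73), and Timeless (-1.77) was the lowest.

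Bhlhe41 has 2 transcripts in the files. NM_001271768 carries 129 bases (mm9 chr6:145812259-145812387), 47 of them coding in the GENCODE annotation of this build, that NM_024469 lacks. Its share of Bhlhe41 was 13.7%, 10.2% and 8.44% on BME day 1, 8.42%, 9.68% and 7.95% on BME day 5 and 18.7%, 16.6% and 17.7% on BME + COL. The BME + COL libraries lay above all BME libraries. In FPKM, NM_024469 was 5.62 to 9.65 on BME day 5 and 4.35 to 4.70 on BME + COL, while NM_001271768 was 0.603 to 0.834 and 0.865 to 1.08. The share differed by -8.99 percentage points between BME day 5 and BME + COL (exact permutation p = 0.1, two-sided, the smallest p that 3 against 3 libraries allow).

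Sox9 (mm9 chr11:112643524-112649071, plus strand), which specifies progenitor cells in several epithelia, was the only one of the 9 genes called between the BME days. It was at 16.2, 16.9 and 16.9 FPKM on BME day 1, at 11.2, 7.33 and 9.005 FPKM on BME day 5 and at 14.1, 14.4 and 13.9 FPKM on BME + COL. The groups did not overlap in any pair. From day 1 to day 5 on BME it fell by 0.88 on the log2 scale (SE 0.13, adjusted p = 0.00211), and 3.19% of all genes tested had a lower value. BME day 5 was also below BME + COL (-0.64, SE 0.13, adjusted p = 0.00130). BME + COL day 5 differed from BME day 1 by -0.24 (95% interval -0.52 to 0.052, adjusted p = 0.130), which was called as TPM (-0.46, adjusted p = 0.000464), by median-ratio scaling (-0.28, adjusted p = 0.0187), with only the 6 libraries compared (adjusted p = 0.00154) and without replicate a or b of BME day 5 (adjusted p = 0.0354 and 0.0176).

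Of 16 SOX and pluripotency factors, 4 passed the filter. Sox2, a pluripotency factor, was likewise lowest on BME day 5, at 56.7 ± 3.19 FPKM on BME day 1, 32.9 ± 2.75 FPKM on BME day 5 and 58.0 ± 1.38 FPKM on BME + COL. It was lower on BME day 5 than on BME day 1 (-0.79, adjusted p = 0.000487) and than on BME + COL (-0.82, adjusted p = 1.90e-05). Sox13 was at 7.51, 4.20 and 11.9 FPKM in the same order of groups, and was called in all 3 comparisons. Sox4 and Klf4 went the other way between the matrices: Sox4 was at 31.6 ± 1.71 FPKM on BME day 5 against 14.1 ± 0.402 FPKM on BME + COL (1.16, adjusted p = 1.73e-06), and Klf4 at 18.9 ± 3.08 FPKM against 11.0 ± 0.301 FPKM (0.76, adjusted p = 0.000193). The Schwann cell factor Sox10 and its 4 companions in the glial marker list stayed under 1 FPKM.

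Gas6 (mm9 chr8:13465374-13494535, minus strand), the ligand, was all but absent. It was at 0.0311, 0.00779 and 0 FPKM on BME day 1, at 0.0397, 0.274 and 0.0590 FPKM on BME day 5 and at 0.00882, 0 and 0 FPKM on BME + COL. The 3 highest values were those of BME day 5, and at this level no difference could be tested. Pros1, which encodes protein S, the other vitamin K-dependent ligand of these receptors, was at 0.987 ± 0.319, 1.37 ± 0.280 and 0.385 ± 0.0274 FPKM on BME day 1, BME day 5 and BME + COL (SD, n = 3). Its mean over the 9 libraries was under 1 FPKM, so it was not tested either. The groups of BME day 5 (1.11 to 1.67 FPKM) and BME + COL (0.354 to 0.406 FPKM) did not overlap.

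Axl (mm9 chr7:26541519-26573752, minus strand) made up 94.5% to 97.4% of the FPKM of the 3 TAM receptors in each library. It was at 146, 150 and 176 FPKM on BME day 1, at 138, 78.9 and 131 FPKM on BME day 5 and at 167, 170 and 158 FPKM on BME + COL. All BME day 5 libraries lay below the other groups, and replicate b lay far below its own. The log2 difference of BME day 5 from BME + COL was -0.55 (SE 0.19, adjusted p = 0.0244). Without replicate b of BME day 5 it was -0.29 (adjusted p = 0.00881), and without replicate a, b or c of BME + COL the call was lost (-0.54, -0.53 and -0.58, adjusted p = 0.0505 to 0.0698). It was lost too as TPM (-0.21, adjusted p = 0.151), with the most abundant transcript alone (-0.47, adjusted p = 0.0649), with only the 6 libraries compared (adjusted p = 0.0546) and with no filter (adjusted p = 0.0891). From day 1 to day 5 on BME the difference was -0.47 (95% interval -0.90 to -0.045, adjusted p = 0.0817), which was called without replicate a of BME day 5 (-0.62, adjusted p = 0.0373) and as TPM (-0.35, adjusted p = 0.0495). BME + COL differed from BME day 1 by 0.076 (95% interval -0.35 to 0.51, adjusted p = 0.741).

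The mix of Axl transcripts differed between the matrices. NM_001190974 differs from the main transcript NM_009465 in lacking 1 exon of 27 bases, all of them coding in the GENCODE annotation of this build (mm9 chr7:26558118-26558144, minus strand), which is printed because it marks the shift.
Axl exon: ggcaaggacagccactccaccatctgg
The share of the transcript without this exon was 10.5%, 9.92% and 9.43% on BME day 1, 8.56%, 11.3% and 9.74% on BME day 5 and 15.7%, 14.6% and 14.8% on BME + COL. The BME days overlapped and BME + COL lay above both. The difference of BME day 5 from BME + COL was -5.21 percentage points (exact permutation p = 0.1, two-sided, the smallest possible). NM_001190975, which lacks other exons, was at 15.2% ± 0.983 and 14.0% ± 0.718 (SD, n = 3) and its groups overlapped. Share ranges that do not overlap were common: of 5973 transcripts with a mean share of 1% to 99%, 34.5% had them between BME day 5 and BME + COL, 20.1% between the BME days and 29.6% between BME + COL day 5 and BME day 1. Of the 8 Axl, Bhlhe41 and Mapk14 transcripts in that set, 4 did between BME day 5 and BME + COL and none between the BME days. Those 4 were Axl NM_001190974 and NM_009465 and both Bhlhe41 transcripts. Shares within a gene are parts of the same total, so they are not separate observations.

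**Figure D4:**
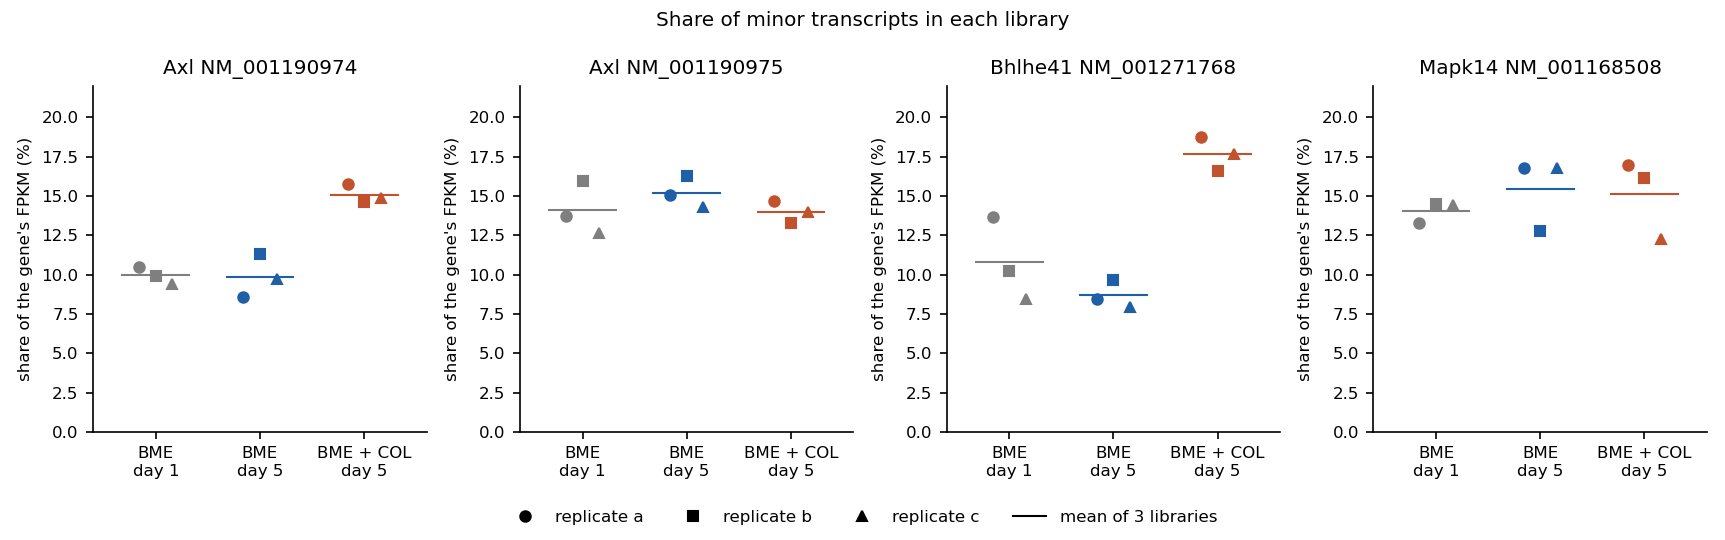
Share of 4 minor transcripts in the FPKM of their gene (vertical axes, percent) in the 9 libraries, with replicates as in the plot of the 10 genes and lines at the means. The BME + COL libraries lie above all others for Axl NM_001190974 (14.6% to 15.7%) and Bhlhe41 NM_001271768 (16.6% to 18.7%), and overlap the others for Axl NM_001190975 and Mapk14 NM_001168508.

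Mertk (mm9 chr2:128524733-128627924, plus strand), best known for the clearance of apoptotic cells by macrophages, was low and higher on collagen. It was at 1.25, 1.20 and 1.47 FPKM on BME day 1, at 1.42, 1.43 and 1.34 FPKM on BME day 5 and at 2.32, 2.45 and 2.11 FPKM on BME + COL. The BME + COL libraries lay above all BME libraries. BME day 5 was 1.60-fold lower than BME + COL (log2 difference -0.68, SE 0.12, adjusted p = 0.000685), and BME + COL was 0.77 above BME day 1 (SE 0.12, adjusted p = 0.000459). The BME days differed by 0.092 (95% interval -0.18 to 0.37, adjusted p = 0.567). The summed macrophage and haematopoietic markers were 5.74 to 6.98 FPKM on BME day 5 and 5.53 to 5.73 FPKM on BME + COL, mostly Cd14 and Cd68. On BME day 1 they were 7.24 to 10.8 FPKM. The sum hides opposite moves: on BME + COL the mean of Cd68 was lower than on BME day 5, and that of Cd14 was higher. Of the markers under 1 FPKM, Cd163, Mrc1 and Ptprc were higher there, and Csf1r, Fcgr1 and Laptm5 were lower. A part of such cells in the Mertk difference was not tested.

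Tyro3 (mm9 chr2:119625250-119643839, plus strand) differed the least of the receptors between BME day 5 and BME + COL in FPKM. As TPM its difference there was the largest in size (0.45, beside -0.36 for Mertk and -0.21 for Axl). It was at 3.12, 3.19 and 3.30 FPKM on BME day 1, at 3.59, 3.17 and 3.69 FPKM on BME day 5 and at 3.21, 3.34 and 3.08 FPKM on BME + COL. All 3 groups overlapped. The log2 difference of BME day 5 from BME + COL was 0.11 (95% interval -0.079 to 0.30, adjusted p = 0.254). It was called higher on BME as TPM (0.45, adjusted p = 0.000548), by median-ratio scaling (0.29, adjusted p = 0.00171) and without replicate b of BME day 5 (0.18, adjusted p = 0.0492). Relative to the median of all genes it lay at 0.29 in both FPKM and TPM. Between the BME days the difference was 0.11 (95% interval -0.075 to 0.30, adjusted p = 0.2998), called as TPM (0.24, adjusted p = 0.0469) and by median-ratio scaling (0.25, adjusted p = 0.0126). BME + COL differed from BME day 1 by 0.0035 (95% interval -0.19 to 0.19, adjusted p = 0.975), and by -0.22 as TPM (adjusted p = 0.0333).

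Of 20 tested genes for TAM ligands and receptor handling, 9 were higher and 6 lower on BME than on BME + COL at day 5, with a median of 0.17, beside 30.3% and 45.3% of all genes. As TPM these were 11 and 3, beside 4858 and 3327 of all 10497 genes. Itgb3, an integrin subunit that pairs with alpha V, was at 41.3 ± 11.3 FPKM on BME day 5 and 6.96 ± 0.282 FPKM on BME + COL (log2 difference 2.51, SE 0.20, adjusted p = 3.68e-06). Socs3, a feedback inhibitor of cytokine signalling, was lower, at 6.57 ± 0.946 FPKM against 12.0 ± 0.412 FPKM (-0.87, SE 0.12, adjusted p = 0.000159). From day 1 to day 5 on BME, 2 were higher and 5 lower, beside 9.09% and 22.2% of all genes. By median-ratio scaling these were 5 and 4, and without replicate b of BME day 1, or with only the 6 libraries compared, 1 and 2. Leaving out a library gave 3 to 10 calls in the list, beside 1551 to 4228 calls over all genes. Itgb5 was at 49.9 ± 5.18 FPKM on BME day 1 and 157 ± 49.3 FPKM on BME day 5 (1.61, adjusted p = 0.000706). Cbl, an E3 ubiquitin ligase that takes active receptors out of the membrane, was at 8.46 ± 0.564 and 5.30 ± 1.33 FPKM (-0.69, adjusted p = 0.0161), a call lost without replicate b of BME day 1 (adjusted p = 0.0640), with only the 6 libraries compared (adjusted p = 0.0550) and with no filter (adjusted p = 0.0682). On BME + COL against BME day 1, 3 were higher and 7 lower, beside 34.2% and 31.8% of all genes. As TPM these were 1 and 9, beside 2638 higher and 4870 lower of all 10497 genes. Rac1, a GTPase of engulfment and motility, was at 188 against 132 FPKM (0.51, adjusted p = 0.00314).

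Mapk14 (mm9 chr17:28828287-28885350, plus strand), which encodes p38 alpha, was the main p38 gene. It was at 18.2, 18.7 and 19.0 FPKM on BME day 1, at 18.4, 16.8 and 19.2 FPKM on BME day 5 and at 26.9, 27.3 and 25.0 FPKM on BME + COL. The BME days overlapped and BME + COL lay above both. BME day 5 was 1.46-fold lower than BME + COL (log2 difference -0.54, SE 0.075, adjusted p = 0.000131). As TPM the difference was -0.20 (adjusted p = 0.0225) and by median-ratio scaling -0.36 (adjusted p = 0.000124). BME + COL was 0.50 above BME day 1 (SE 0.075, adjusted p = 0.000329), and the BME days differed by -0.041 (95% interval -0.21 to 0.13, adjusted p = 0.684).

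Mapk11 (mm9 chr15:88972914-88980036, minus strand), which encodes p38 beta, was at 5.33, 5.55 and 6.08 FPKM on BME day 1, at 4.75, 3.19 and 4.94 FPKM on BME day 5 and at 5.25, 4.87 and 4.98 FPKM on BME + COL. All BME day 5 libraries lay below BME day 1, and BME day 5 overlapped BME + COL. The difference from BME + COL was -0.25 (95% interval -0.58 to 0.083, adjusted p = 0.1497) and its sign turned as TPM (0.089, adjusted p = 0.416). Between the BME days it was -0.41 (SE 0.15, adjusted p = 0.0581), which was called without replicate a (-0.50), b (-0.22) or c (-0.53) of BME day 5 (adjusted p = 0.0414 to 0.0483) and as TPM (-0.30, adjusted p = 0.0391). BME + COL differed from BME day 1 by -0.16 (95% interval -0.50 to 0.17, adjusted p = 0.349), called as TPM (-0.39, adjusted p = 0.00527) and without replicate b of BME day 5 (adjusted p = 0.0480).

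The p38 family changed in make-up between the matrices. Mapk14 supplied 52.9% ± 0.669 of the FPKM of the 4 p38 genes on BME day 1, 44.9% ± 1.95 on BME day 5 and 67.8% ± 0.987 on BME + COL (SD, n = 3), with no overlap between groups. Mapk13 (p38 delta) moved against it, from 4.44 ± 0.768 FPKM on BME day 1 to 11.6 ± 0.886 FPKM on BME day 5, and was at 2.27 ± 0.161 FPKM on BME + COL. It was higher on BME day 5 than on BME day 1 (1.38, SE 0.13, adjusted p = 0.000292) and than on BME + COL (2.30, SE 0.13, adjusted p = 5.27e-07). Mapk12 (p38 gamma) was at 6.52 ± 1.45 and 5.21 ± 0.167 FPKM on BME day 5 and BME + COL (log2 difference 0.30, adjusted p = 0.0922), called higher on BME as TPM (0.64, adjusted p = 0.000308), by median-ratio scaling (0.48, adjusted p = 0.00207) and without replicate b of BME day 5 (0.47, adjusted p = 0.00192). The sum of the 4 genes was 35.6 to 44.6 FPKM on BME day 5 and 37.4 to 39.7 FPKM on BME + COL, which overlapped.

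**Figure D5:**
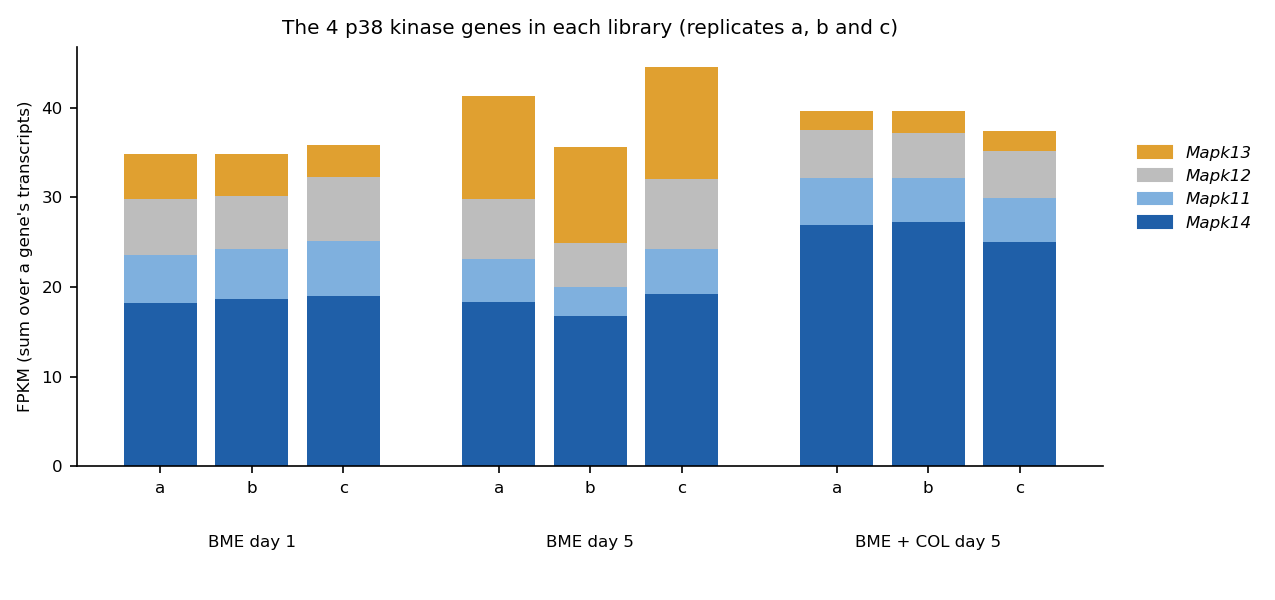
FPKM of the p38 genes Mapk14, Mapk11, Mapk12 and Mapk13, stacked for each of the 9 libraries (vertical axis, linear from 0), with replicates a, b and c side by side in each group. The BME day 5 bars hold the most Mapk13 (10.7 to 12.5 FPKM) and the BME + COL bars the most Mapk14 (25.0 to 27.3 FPKM).

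Mapk14 transcripts NM_011951 and NM_001168508 differ by a pair of alternative coding exons of 80 bases each (mm9 chr17:28873956-28874035 and chr17:28877625-28877704, plus strand). They are printed to show how far the kinase sequence differs between the forms, with the 39 identical bases in capitals.
Exon of NM_011951: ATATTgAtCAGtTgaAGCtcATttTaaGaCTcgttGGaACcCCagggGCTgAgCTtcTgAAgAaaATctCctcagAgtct
Exon of NM_001168508: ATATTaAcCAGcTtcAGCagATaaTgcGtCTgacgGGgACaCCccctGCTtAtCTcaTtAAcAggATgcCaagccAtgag
The share of NM_001168508 in Mapk14 was 14.1% ± 0.673 on BME day 1, 15.5% ± 2.30 on BME day 5 and 15.1% ± 2.51 on BME + COL (SD, n = 3). That of NM_011951 was 35.7% ± 4.75, 35.2% ± 1.78 and 38.1% ± 8.26. The groups overlapped for both transcripts. The largest mean share was that of NM_001168513, at 50.1% ± 5.24, 49.1% ± 3.76 and 46.1% ± 6.05, and its groups overlapped too. Which of the exons it carries was not examined, so use of the exons cannot be read from these shares.

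Of 33 tested genes of the p38 pathway list, 8 were higher and 17 lower on BME day 5 than on BME + COL, with a median of -0.33, beside 30.3% and 45.3% of all genes. The balance turned to 16 higher and 8 lower as TPM and was 14 and 14 by median-ratio scaling. That of all 10497 genes turned likewise, to 4858 and 3327 as TPM and 4151 and 4156 by median-ratio scaling. Gadd45a, a stress-induced activator of the p38 cascade, was at 23.1 ± 2.75 FPKM on BME day 5, 11.3 ± 2.76 FPKM on BME day 1 and 3.15 ± 0.411 FPKM on BME + COL (2.84 against BME + COL, SE 0.18, adjusted p = 1.14e-06). Hspb1, a small heat shock protein phosphorylated downstream of p38, was lower, at 44.4 ± 4.74 FPKM against 120 ± 5.88 FPKM (-1.44, SE 0.14, adjusted p = 1.54e-05). Dusp1, a phosphatase that switches p38 off, was at 83.4 ± 1.99 FPKM on BME + COL and 31.6 ± 6.29 FPKM on BME day 1 (1.42, adjusted p = 1.91e-05). On BME, 3 were higher and 5 lower at day 5 than at day 1, beside 9.09% and 22.2% of all genes. The list gave 3 higher and 0 lower with only the 6 libraries compared or without replicate a of BME day 1, 3 and 1 without its replicate b, and 3 and 10 without replicate a of BME day 5. Without any 1 of the BME + COL libraries it gave 3 and 2, as it did without transcripts under 300 nt, and 3 and 1 with no filter. Over all genes, calls went from 3281 to 1070 with only the 6 libraries compared, and to between 1551 and 4228 with a library left out. Map2k3, a kinase directly upstream of p38, was at 56.3 ± 2.89 FPKM on day 1 and 37.4 ± 8.42 FPKM on day 5 (-0.61, adjusted p = 0.0158), a call lost without replicate a of BME day 1 (adjusted p = 0.0506), with only the 6 libraries compared (adjusted p = 0.0661) and with no filter (adjusted p = 0.0609).

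Of 12 tested genes of other dormancy signals, 6 were higher and 3 lower on BME than on BME + COL at day 5, with a median of 0.42, beside 30.3% and 45.3% of all genes. As TPM these were 8 and 2, beside 4858 and 3327 of all 10497 genes. Ndrg1, a metastasis suppressor used as a marker of growth arrest, was at 21.4 ± 3.24 FPKM on BME day 1, 14.9 ± 2.69 FPKM on BME day 5 and 3.68 ± 0.221 FPKM on BME + COL. It was higher on BME day 5 than on BME + COL by 1.98 (SE 0.15, adjusted p = 2.65e-06), the same direction as for Bhlhe40. Plau, which encodes urokinase, was lower, at 19.8 ± 2.70 FPKM against 55.9 ± 1.44 FPKM (-1.50, SE 0.11, adjusted p = 2.54e-06). Between the BME days, 3 were higher and 5 lower, beside 9.09% and 22.2% of all genes. These became 2 and 0 with only the 6 libraries compared or without replicate b of BME day 1, 2 and 1 without its replicate a, and 2 and 3 without replicate a of BME + COL. They were 3 and 0 with no filter and 3 and 1 without transcripts under 300 nt. Over all genes, calls went from 3281 to 1070 with only the 6 libraries compared, and to between 1551 and 4228 with a library left out. Thbs1, which encodes the matrix protein thrombospondin 1, was at 269 ± 32.3 FPKM on day 1 and 660 ± 199 FPKM on day 5 (1.26, adjusted p = 0.00216), and the cytokine gene Lif at 17.1 ± 1.67 and 8.43 ± 3.12 FPKM (-1.09, adjusted p = 0.0127), a call lost without replicate b of BME day 1 (adjusted p = 0.0545), with only the 6 libraries compared (adjusted p = 0.0612) and with no filter (adjusted p = 0.0625).

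Between the BME days, 0 of the 9 dormancy genes were called higher by limma and 1 was called lower, beside 9.09% and 22.2% of all genes tested. Sox9, Axl and Mapk11 had an unadjusted p under 0.05, all with lower values at day 5. The median of the 9 genes was -0.26, beside -0.15 for all genes. Over all genes the TPM scale gave 1534 higher and 2236 lower in place of 954 and 2327, and median-ratio scaling gave 1967 and 1839. Between BME + COL day 5 and BME day 1, 3 of the 9 genes (Nr2f1, Mertk and Mapk14) were higher and 2 (Bhlhe40 and Bhlhe41) lower, beside 34.2% and 31.8% of all genes, with a median of 0.0035 against 0.033. The TPM scale gave 2638 higher and 4870 lower in place of 3588 and 3343 over all genes, and 3 higher and 5 lower among the 9. These comparisons share libraries with the first, so their values are not independent of it. In the last of them both matrix and day differ, as no BME + COL library of day 1 is among the samples.

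For each of the 7 genes called between BME day 5 and BME + COL, the genes with the most similar profile over the 9 libraries were sought among those with a mean of at least 5 FPKM, by the root mean square difference of log2 values centred on the gene's mean. For Bhlhe40 they were Chpf2 (0.12), Fnip1 (0.13) and Mfsd6 (0.15). For Bhlhe41 they were Klf10 (0.11), Mapkapk3 (0.14) and 1600002H07Rik (0.15). The other 5 genes had smaller distances: Mapk14 with Cand1 (0.038), Mertk with Kpna4 (0.054), Nr2f1 with Gabpb1 (0.058), Sox9 with Cers6 (0.062) and Axl with Vamp3 (0.070). The distance was not scaled to the size of a gene's changes, so it does not rank likeness of pattern between the 7 genes. Mapkapk3, the second match of Bhlhe41 among 7630 candidates, encodes a kinase activated by p38 and stood in the p38 pathway list. A link between Bhlhe41 and p38 was not tested.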

How the data were processed

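Total RNA of D2.0R cells was sequenced in 9 libraries, with groups and replicate letters taken from the sample titles. The deposited values are FPKM per RefSeq transcript, written by Cufflinks (version not given in the sources used here) for 30563 transcripts on mm9, after CASAVA 1.8.4, Trimmomatic 0.30 and TopHat2 2.0.8, per the submitters' processing notes. The authors gave no counts, so no count model was used, and the other values of their attribute column (intervals and read depth) served to state precision and depth. FPKM were summed by gene symbol, and 0.1 FPKM was added before log2. Genes whose mean reached 1 FPKM (10497) were fitted by limma 3.58.1 (R 4.3.3, intensity trend, 3 group means, 6 residual degrees of freedom), which was checked on simulated data. The study's own test in Partek on its alignments was not used here. The members and lists were chosen with earlier results of these data known. Besides the members, the largest rise and fall of each of 7 lists per comparison were named (mean of at least 2 FPKM, all called genes where 4 or fewer), with Mki67 for growth state. Dbp and Per3 did not reach that minimum and were named outside this rule, for differences larger than that of Tef. Nr2f2, Nr2f6, Mapk12, Mapk13 and Pros1 were added as relatives after their values were seen. Same-letter libraries of different groups correlated at -0.23 to 0.10 (0 of 9 pairs above 0.1), so letters were not used as pairs. Promoters came from RefSeq on GRCm38.p6 (8 of 10 genes) and exons from the mm9 genome. Alternatives were other pseudocounts (1 and 0.01), no filter or a mean of at least 5 FPKM, TPM, median-ratio scaling, no transcripts under 300 nt, the most abundant transcript, only 6 libraries, a replicate block and leaving out each library.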

Additional observations from a re-analysis of the deposited data

How the results depend on the processing

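The 7 calls between BME day 5 and BME + COL day 5 kept their direction under every alternative in which the gene was tested (19 each, but 18 for Nr2f1 and Mertk, which a minimum mean of 5 FPKM removed), and those of Bhlhe40, Nr2f1, Sox9, Mertk and Mapk14 also kept their side of the threshold there. Leaving out a library gave 5 to 8 called genes in this comparison, 1 to 3 between the BME days and 5 to 7 between BME + COL day 5 and BME day 1. Over all 10497 genes tested these were 7304 to 8284, 1551 to 4228 and 6039 to 8082. As TPM, 4 genes were called between the BME days (2 by median-ratio scaling) and 8 between BME + COL day 5 and BME day 1, where a minimum mean of 5 FPKM left 3 called because fewer genes were tested. Over all 10497 genes, TPM gave 3770 and 7508 calls in these comparisons, and median-ratio scaling gave 3806 between the BME days. Called genes of the 7 lists between the BME days fell from 37 to 19 with only the 6 libraries compared, and ran from 21 (without replicate b of BME day 1) to 56 (without replicate a of BME day 5). Over all genes, calls between the BME days fell from 3281 to 1070 with only the 6 libraries compared. A replicate block gave 7, 1 and 5 called genes in the 3 comparisons, beside 7839, 2919 and 6808 of all 10497 genes. The block changed no call of the 9 tested genes. It added Mapk12 between BME day 5 and BME + COL (adjusted p = 0.0467) and took Arntl there (adjusted p = 0.0501). In that comparison Bhlhe40 had a log2 difference of 1.43 with the block (adjusted p = 5.47e-05). Signs turned only where a difference was not called: Mapk11 between BME day 5 and BME + COL as TPM (0.0894), Bhlhe40 (0.0663 and 0.0889) and Mapk14 (0.0790 and 0.101) between the BME days as TPM and by median-ratio scaling, Axl between BME + COL day 5 and BME day 1 as TPM (-0.15) and with the most abundant transcript (-0.0219), and Tyro3 there as TPM (-0.22, then called) and by median-ratio scaling (-0.0357). Leaving out libraries gave -0.221 to 0.0690 for Bhlhe40 and -0.0853 to 0.0142 for Mapk14 between the BME days, and -0.0243 to 0.0318 for Tyro3 between BME + COL day 5 and BME day 1. The cause of these changes was not tested. With 3 libraries a group, no share of transcripts could pass an exact test, and Gas6 was too low to compare.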
